A study of Mus musculus with 15 samples.

Results

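Hair matrix transcription factors are the DNA-binding regulators that the dividing cells at the base of a growing hair follicle use as they become hair shaft or inner root sheath. The 8 described here were chosen by symbol: Msx2, Foxn1, Lef1, Dlx3, Foxq1, Gata3, Ovol1 and Vdr. Each was found among the 18929 genes of the table and among the 15369 genes that passed the filter on low counts. Messenger RNA came from dorsal skin of BALB/c male mice, 4 to 6 weeks old and wild type by label, in 15 samples, with 3 in each of 5 groups. Full-thickness excisional wounds of 10 mm or 15 mm were filled either with acellular Matrigel beads (acellular) or with printed Matrigel beads carrying mesenchymal stem cells at high density among acellular beads (HDB), and unwounded skin served as the normal group. The stem cells came from human umbilical cord, so the HDB groups were human cells in a mouse host, and both treated and control wounds held Matrigel, a matrix extract of mouse tumour origin. The methods give 4 weeks of implantation for the sequenced skin and end the wound experiment at day 21. Neither shaving nor the stage of the hair cycle is given for these groups, and nothing says that replicates were separate animals, so the p-values measure only the spread between these samples.

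The hair matrix surrounds the dermal papilla, divides rapidly during the growth phase, and sends its daughters upward into the concentric layers of the hair. Wnt signals act through Lef1 on hair shaft genes, bone morphogenetic protein signals act through homeobox genes such as Msx2, and Foxn1 (the gene lost in nude mice) is needed for hair keratin expression and a hair that emerges. Dlx3 is a homeobox gene of shaft and inner root sheath, Foxq1 (the satin gene) acts in the medulla, Gata3 in the inner root sheath, Ovol1 is a zinc finger factor downstream of Wnt signalling, and Vdr, the vitamin D receptor, is required for hair cycling after birth. Several of these genes also work outside the hair. Gata3 is a regulator of T cells and of the epidermis, Lef1 is made by T cells, and Vdr, Dlx3 and Ovol1 are active in differentiating epidermis.

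Total counts lay between 15840551 and 18404188 a sample, so depth differed little. The library of acellular 15 mm replicate 1 stood apart. It correlated with the other two of its group at 0.853 and 0.917 (Pearson r of log2 CPM over genes, where CPM is the count scaled to a common library size by TMM), and it held the highest level of 6 of the 8 factors. The samples were skin by their markers: Krt5, a basal epidermal keratin, lay between 2230 and 7960 CPM in every library, and skeletal muscle genes differed widely between libraries, with Acta1 from 136 to 16300 CPM. In bulk skin, fewer cells of a type and less RNA per cell cannot be told apart.

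Promoters were read because these factors bind DNA and because several of the products they act on are described with them. RefSeq windows (GRCm38.p6) were at hand for 5 of the 8 factors, namely Msx2, Foxn1, Lef1, Gata3 and Vdr, and the 250 bases before each start were searched on both strands for CTTTGA (the core bound by Lef1 and its relatives), TAATTG (bound by homeobox factors), AGATAA (bound by GATA factors) and AGGTCA (the half-site of Vdr). Of 32817 such windows, 13.8% held CTTTGA, 7.17% TAATTG, 9.99% AGATAA and 14% AGGTCA. Among the factors, a match was found in 1 gene. Of the 4 windows of Lef1, that at chr3:131156044-131156293 on the plus strand lies inside Lef1, outside its annotated exons, before an internal start, and holds CTTTGA on the opposite strand at 180 and 120 bases before that start, shown as TCAAAG in capitals:
Lef1: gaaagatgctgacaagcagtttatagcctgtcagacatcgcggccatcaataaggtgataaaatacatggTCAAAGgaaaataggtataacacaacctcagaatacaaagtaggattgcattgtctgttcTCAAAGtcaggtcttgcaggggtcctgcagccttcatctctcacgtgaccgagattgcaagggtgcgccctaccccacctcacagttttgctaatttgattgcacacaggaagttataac
The windows of Msx2, Foxn1, Gata3 and Vdr and the other 3 of Lef1 held none of the 4 motifs. That of Gata3 (chr2:9878601-9878850) lies inside the Gata3 span, and that of Foxn1 (chr11:78386609-78386858) overlaps the end of the Foxn1 span. Those of Msx2 and Vdr overlap annotated exons of the same gene. The absence thus holds for these windows and not for every start of these genes.

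Among the products, CTTTGA was found in 5 of the 8 hair shaft genes with a window (62.5%) and AGATAA in 5 of the 8 inner root sheath genes with a window (62.5%). The homeobox motif TAATTG was in 4 of those 8 inner root sheath genes (50%: Krt25, Krt26, Krt28 and Krt73) and in 1 of the 8 hair shaft genes (12.5%), CTTTGA was in 2 of the 8 inner root sheath genes (25%), AGATAA in 0 of the hair shaft genes, and AGGTCA in 1 of the hair shaft (12.5%) and 0 of the inner root sheath genes. Most of these genes are related keratins that lie near each other, so the matches are not independent of each other. A gene was counted here if any of its windows matched, whereas the shares over all windows above are per window, so the percentages differ in unit. The stretches run 5′ to 3′ on the strand of the gene with the match in capitals, first CTTTGA in the hair shaft genes and then AGATAA in the inner root sheath genes, and none overlaps an annotated exon. That of S100a3 lies within the S100a3 span and that of Tchh within the span of Gm37245 on the opposite strand. Capitals mark only the motif named for the list, at the match nearest the start. The Krt34 window held 2 CTTTGA matches. Unmarked are CTTTGA in the Tchh stretch and TAATTG on the opposite strand in that of Krt73.
Krt31, chr11:100050770-100050801, minus strand, match 244 bases before the start: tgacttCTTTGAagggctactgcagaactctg
Krt32, chr11:100088491-100088519, minus strand, match 247 bases before the start: gccCTTTGAagatgtgtcttgatgctctc
Krt33b, chr11:100030090-100030118, minus strand, match 247 bases before the start: ttaCTTTGAagccaaaccatgaagctctt
Krt34, chr11:100041662-100041707, minus strand, match 133 bases before the start: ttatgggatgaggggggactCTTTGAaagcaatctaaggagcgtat
S100a3, chr3:90600055-90600100, plus strand, match 139 bases before the start: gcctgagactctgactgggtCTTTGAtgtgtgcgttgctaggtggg
Krt25, chr11:99323120-99323165, minus strand, match 194 bases before the start: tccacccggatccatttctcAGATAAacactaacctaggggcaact
Krt27, chr11:99351276-99351321, minus strand, match 183 bases before the start: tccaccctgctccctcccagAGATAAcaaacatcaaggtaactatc
Krt71, chr15:101743297-101743342, minus strand, match 225 bases before the start: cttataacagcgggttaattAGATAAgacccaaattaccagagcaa
Krt73, chr15:101802517-101802562, minus strand, match 182 bases before the start: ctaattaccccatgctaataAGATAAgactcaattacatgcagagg
Tchh, chr3:93442156-93442201, plus strand, match 154 bases before the start: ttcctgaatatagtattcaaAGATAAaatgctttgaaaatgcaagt
A match of 6 letters is a description of the sequence, and binding was not measured.

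The homeobox gene Msx2 (Entrez 17702, GRCm38.p6 chr13:53466881-53472780, minus strand) was lowest in normal skin, at 1.76, 2.01 and 2.21 CPM in replicates 1, 2 and 3. Acellular 10 mm skin held 21, 3.65 and 22.4 CPM, and acellular 15 mm skin 213, 34.4 and 5.10 CPM. HDB 10 mm skin held 5.62, 4.79 and 5.44 CPM, and HDB 15 mm skin 15.6, 6.43 and 18.7 CPM. All 12 wound samples lay above all 3 normal samples, while within each acellular group 1 sample was as low as HDB 10 mm skin. The level in acellular 15 mm replicate 1 was 6.18 times that of the next sample. The normal values rest on few reads, between 25 and 33 counts a library.

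Foxn1 (Entrez 15218, chr11:78357577-78386783, minus strand), the forkhead gene of hair keratin expression, followed a like order. Normal skin held 2.88, 3.41 and 3.29 CPM, acellular 10 mm skin 15.6, 6.06 and 8.89 CPM, and acellular 15 mm skin 150, 30.5 and 5.58 CPM. Levels in HDB skin were 3.43, 6.46 and 6.89 CPM at 10 mm and 12.6, 5.46 and 8.08 CPM at 15 mm. Every wound sample again exceeded the normal ones, although HDB 10 mm replicate 1 did so by little, and the acellular and HDB ranges overlapped at both sizes.

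The Wnt effector Lef1 (Entrez 16842, chr3:131110297-131224357, plus strand) was the factor most dominated by 1 library. Its start lies under Gm43352 on the opposite strand, and since the strand of the counting is not given, reads of the pair cannot be told apart. Acellular 15 mm replicate 1 held 228 CPM, 8.81 times the next sample, against 15.2 and 7.70 CPM in the other two of its group. Acellular 10 mm skin held 13.1, 7.36 and 25.9 CPM. HDB skin held 10.9, 8.07 and 10.3 CPM at 10 mm and 10.3, 5.88 and 6.78 CPM at 15 mm, and normal skin 7.52, 4.29 and 4.96 CPM. Apart from that library and acellular 10 mm replicate 3, no wound sample exceeded 15.2 CPM and the acellular 10 mm and HDB 15 mm ranges met that of normal skin.

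Dlx3 (Entrez 13393, chr11:95120117-95125296, plus strand), a homeobox gene of the shaft and inner root sheath, spanned the widest range of the 8, with a 183-fold difference between the highest and the lowest library. Acellular 10 mm skin held 36, 2.25 and 46.2 CPM, and acellular 15 mm skin 412, 57.7 and 5.47 CPM. In HDB skin it was 3.31, 3.34 and 7.94 CPM at 10 mm and 27.5, 10.9 and 23.7 CPM at 15 mm, and in normal skin 4.64, 5.56 and 5.63 CPM. Unlike Msx2, Dlx3 was at or below the normal level in several wounds: the lowest acellular 10 mm sample and the HDB 10 mm replicates 1 and 2 lay under all 3 normal samples.

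Ovol1 (Entrez 18426, chr19:5549137-5560575, minus strand), the zinc finger factor, was already well expressed in normal skin at 22.3, 16.8 and 23.7 CPM. It reached 55.1, 28.7 and 35.8 CPM in acellular 10 mm skin and 169, 43.9 and 22 CPM in acellular 15 mm skin. HDB skin held 19.8, 36.4 and 25.5 CPM at 10 mm and 30.8, 16.9 and 29.6 CPM at 15 mm. Of the wound groups, only acellular 10 mm skin did not overlap with normal skin.

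Foxq1 (Entrez 15220, chr13:31558170-31560976, plus strand), the medulla gene, held 13.2, 11.2 and 8.59 CPM in normal skin. Acellular wounds held 41.5, 27.4 and 25.4 CPM at 10 mm and 57.4, 22.6 and 20.7 CPM at 15 mm. HDB wounds held 18.4, 26.9 and 29.9 CPM at 10 mm and 23.5, 11.6 and 21.9 CPM at 15 mm. The wound groups exceeded normal skin without overlap in every case but HDB 15 mm, whose replicate 2 lay within the normal range.

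Vdr (Entrez 22337, chr15:97854427-97908296, minus strand), the vitamin D receptor, separated wounds from normal skin most evenly. Normal skin held 69.5, 62.7 and 51 CPM. Acellular wounds held 241, 174 and 202 CPM at 10 mm and 367, 372 and 159 CPM at 15 mm, and HDB wounds 139, 186 and 183 CPM at 10 mm and 236, 121 and 195 CPM at 15 mm. The lowest wound sample was still above the highest normal one, and the highest Vdr level was in acellular 15 mm replicate 2, not replicate 1.

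Gata3 (Entrez 14462, chr2:9857078-9887953, minus strand), the inner root sheath and T cell factor, varied least, by 2.78-fold over all 15 libraries. It shares its locus with Gm13256 on the opposite strand, and reads of these too cannot be told apart. Normal skin held 122, 93.5 and 98.9 CPM. Acellular wounds held 182, 146 and 140 CPM at 10 mm and 149, 107 and 123 CPM at 15 mm, and HDB wounds 109, 140 and 121 CPM at 10 mm and 127, 65.4 and 114 CPM at 15 mm. Acellular 10 mm skin was the only group clear of the normal range.

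**Figure D1:**
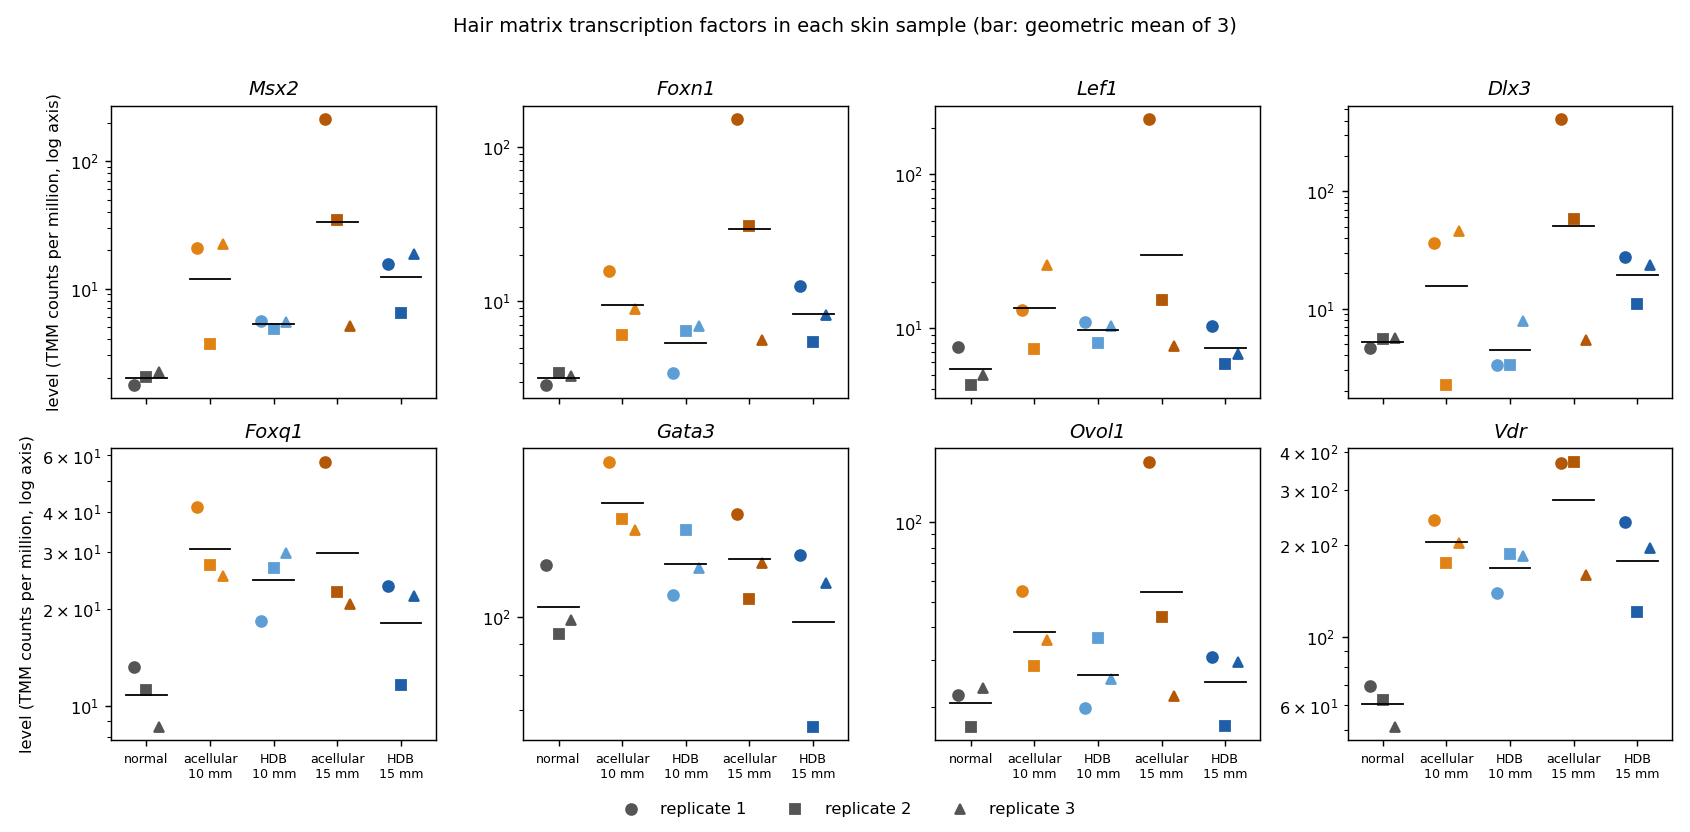
Level of each factor in each of the 15 skin samples, in CPM on a log axis, by group along the horizontal axis. Symbols mark replicates 1 to 3 and bars the geometric mean of 3 samples. Acellular 15 mm replicate 1 is far above the others for Msx2, Foxn1, Lef1 and Dlx3 (150 to 412 CPM), while Gata3 stays between 65.4 and 182 CPM in every sample.

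The spread between wounds thus divided the factors. Over the 12 wound samples the SD of log2 CPM was 2.15 for Dlx3, 1.67 for Msx2, 1.45 for Foxn1 and 1.42 for Lef1, and 0.865 for Ovol1, 0.572 for Foxq1, 0.493 for Vdr and 0.361 for Gata3. Among all genes tested, these SDs stood at the 99.2 percentile for Dlx3 and the 52.7 percentile for Gata3. In normal skin no factor differed by more than 1.75-fold between samples. Levels per kilobase (CPM divided by the length of the longest GENCODE M21 transcript) put Gata3 first in normal skin at 32.6, then Vdr at 14 and Ovol1 at 7.05, and these steps exceeded the spread over samples. Foxq1 at 2.27, Dlx3 at 2.02 and Lef1 at 1.53 followed with ranges that met, and Foxn1 at 0.994 and Msx2 at 0.812 came last with ranges that also met. In acellular 15 mm skin the ranges of all neighbouring factors overlapped, with mean levels per kilobase from 68.5 for Vdr to 6.93 for Foxq1. Without its replicate 1 the means ran from 60.8 for Vdr and 35.8 for Gata3 to 4.46 for Foxq1 and 3.14 for Lef1. The share of Msx2, Foxn1, Lef1 and Dlx3 together in the summed level per kilobase of the 8 was 64% in acellular 15 mm replicate 1, 26.5% in its replicate 2, 25.5% in acellular 10 mm replicate 3 and 18.2% in acellular 10 mm replicate 1. HDB 15 mm skin held between 15.2% and 18.2%, and the other 8 libraries, normal skin included, between 5.85% and 9.76%. These shares hold for the longest transcript only. By the median transcript length, the highest acellular 15 mm levels per kilobase were 294 for Gata3 and 647 for Vdr, against 46.5 and 85.2 by the longest. The shares were not computed by the median length.

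Each wound group was compared with normal skin, using the quasi-likelihood test of edgeR, p-values being adjusted by Benjamini-Hochberg over all genes tested and calls made at an adjusted p under 0.05. The 4 comparisons share the same 3 normal samples. In acellular 15 mm skin 7 of the 8 factors rose, all but Gata3, where 17.6% of all genes tested were called higher. Msx2 rose by a log2 fold change of 5.39 ± 1.14 (SE, edgeR adjusted p = 0.00737), Dlx3 by 4.90 ± 1.32 (edgeR adjusted p = 0.0178), Foxn1 by 4.27 ± 0.914 (edgeR adjusted p = 0.0076) and Lef1 by 3.90 ± 1.03 (edgeR adjusted p = 0.0161). The other 3 rose by less, Vdr by 2.29 ± 0.323, Ovol1 by 1.90 ± 0.587 and Foxq1 by 1.61 ± 0.405. With the replicate number as a block in the fit, Ovol1 was no longer called (1.66 ± 0.565, edgeR adjusted p = 0.0534). Samples of 5 of the 8 factors did not overlap with normal skin, against 22.5% of all genes. Without acellular 15 mm replicate 1, 4 factors were called, where 13.1% of all genes were called higher: Msx2 at 3.30, Foxn1 at 2.49, Vdr at 2.12 and Foxq1 at 0.97 on the log2 scale. Lef1 then stood at 1.04 (edgeR adjusted p = 0.129), Dlx3 at 2.58 (edgeR adjusted p = 0.0888) and Ovol1 at 0.65 (edgeR adjusted p = 0.223). Leaving out normal replicate 2 gave 4 calls and leaving out normal replicate 3 gave 3 (Msx2, Foxn1 and Vdr). With only acellular 15 mm and normal samples in the fit, 1 factor was called. For this smaller fit and the fits without a normal replicate, the share of all genes called is not given here.

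In acellular 10 mm skin 2 factors rose, Vdr by 1.75 ± 0.317 (edgeR adjusted p = 0.00671) and Foxq1 by 1.51 ± 0.404 (edgeR adjusted p = 0.0242), where 9.77% of all genes were called higher. Msx2 had a larger fitted difference, 2.97 ± 1.05, with an edgeR adjusted p of 0.0619, and DESeq2 called it (adjusted p = 0.00631). With only acellular 10 mm and normal samples in the edgeR fit, 7 factors were called, all but Dlx3. The share of all genes called in that fit is not given here, and the 9.77% belongs to the fit of all 15 samples. Samples did not overlap with normal skin for 6 factors, against 29.1% of all genes. Foxq1 was no longer called, leaving Vdr alone, without acellular 10 mm replicate 1, normal replicate 2 or normal replicate 3.

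In HDB skin edgeR called Vdr alone, which rose by 1.47 ± 0.315 at 10 mm (edgeR adjusted p = 0.018) and by 1.59 ± 0.316 at 15 mm (edgeR adjusted p = 0.0244). Higher calls made up 6.10% of all genes at 10 mm and 2.67% at 15 mm. Non-overlapping higher samples were found for 5 factors at 10 mm and 4 at 15 mm, against 25.7% and 23.8% of all genes. The call of Vdr was lost without HDB 10 mm replicate 2 or 3, or normal replicate 2 or 3, at 10 mm, and without HDB 15 mm replicate 1 or 3, or any 1 normal replicate, at 15 mm. Over the fits that each left out 1 library of the groups compared, its log2 fold change lay between 1.36 and 1.82. Msx2 in HDB 15 mm skin, whose 3 samples all exceeded normal skin, had a log2 fold change of 2.76 ± 1.05 that edgeR did not call (adjusted p = 0.121), and Lef1 one of 0.45 ± 0.948. DESeq2 called Msx2 there (adjusted p = 0.021), and Foxq1 in HDB 10 mm skin (adjusted p = 0.0268), beside Vdr in both. With only the groups compared in the edgeR fit, 3 factors were called in HDB 10 mm (Msx2, Foxq1 and Vdr) and 4 in HDB 15 mm skin (Msx2, Foxn1, Dlx3 and Vdr). No share of all genes stands beside these 3 and 4, since the 6.10% and 2.67% belong to the fit of all 15 samples.

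**Figure D2:**
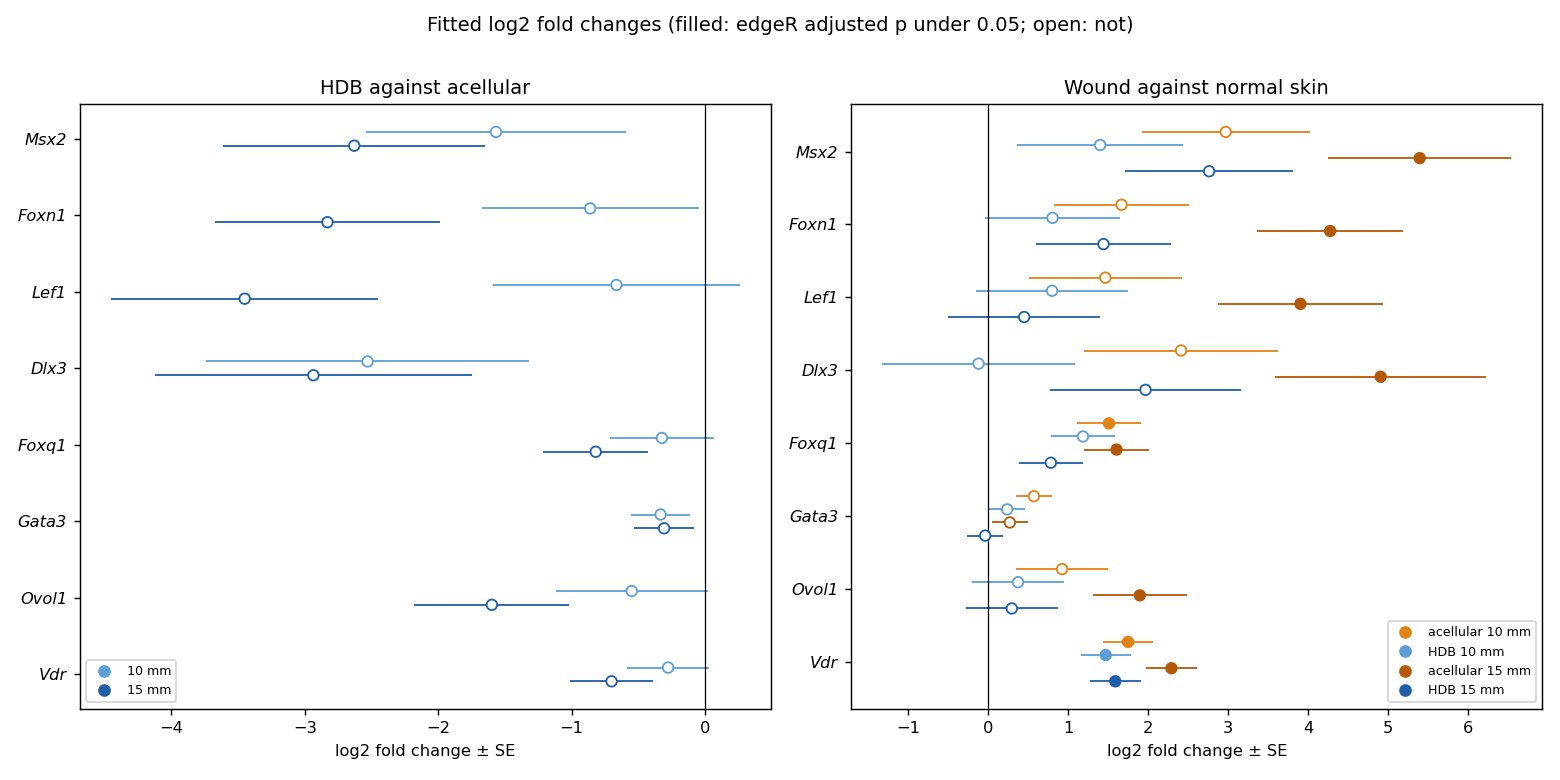
Fitted log2 fold change with its SE (horizontal axis) for each factor, for HDB against acellular skin at each wound size (left) and for each wound group against normal skin (right). Filled points passed an edgeR adjusted p under 0.05. All 8 factors lie below 0 in HDB against acellular skin with no filled point, and 7 are filled in acellular 15 mm against normal skin.

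The treatment question was whether stem cell beads changed these factors against acellular beads in wounds of the same size. In 10 mm wounds 0 of the 8 factors were called, with 0% of all genes called and 0 of the 8 but 543 of all genes at an unadjusted edgeR p under 0.05. DESeq2 also called 0 factors there. Whether reads of the human cells were counted to mouse genes in HDB skin was not tested. All 8 fitted log2 fold changes were negative, from -0.28 ± 0.308 for Vdr and -0.32 ± 0.392 for Foxq1 to -1.57 ± 0.971 for Msx2 and -2.53 ± 1.21 for Dlx3, with a median of -0.61 against -0.01 over all genes tested. No factor had samples that did not overlap, where 6.47% of all genes had all HDB samples lower.

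In 15 mm wounds 0 of the 8 factors passed edgeR's adjusted threshold, where 2.93% of all genes did. At an unadjusted edgeR p under 0.05 there were 6 factors and 3567 of all genes, and DESeq2 called 4 factors and 1770 genes. The fitted log2 fold changes in HDB against acellular skin were -3.45 ± 1 for Lef1 (edgeR adjusted p = 0.0775), -2.94 ± 1.19 for Dlx3 (edgeR adjusted p = 0.168), -2.83 ± 0.844 for Foxn1 (edgeR adjusted p = 0.0829) and -2.63 ± 0.983 for Msx2 (edgeR adjusted p = 0.141). Those of Ovol1 (-1.60 ± 0.58), Foxq1 (-0.82 ± 0.395), Vdr (-0.70 ± 0.309) and Gata3 (-0.31 ± 0.223) were smaller. None of the 8 had samples that did not overlap, against 11.7% of all genes with lower HDB samples, and acellular 15 mm replicate 3 lay within or below the HDB range for every one of them. Taking replicates of the same number as pairs, HDB skin was lower in 3 of 3 pairs for Lef1 and Gata3 and in 2 of 3 for the other 6 factors. That pairing was picked from these data and is named by no label. With the replicate number as a block, Lef1 stood at -2.83 ± 0.934 (edgeR adjusted p = 0.13), 0 factors were called, and 179 genes in place of 450. By DESeq2 with Benjamini-Hochberg adjustment, Lef1 (adjusted p = 0.00207), Foxn1 (adjusted p = 0.00536), Msx2 (adjusted p = 0.0289) and Ovol1 (adjusted p = 0.0423) were lower in HDB skin.

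These values rested largely on 1 acellular library. When acellular 15 mm replicate 1 was left out, Lef1 stood at a log2 fold change of -0.58, Msx2 at -0.54, Dlx3 at -0.61 and Foxn1 at -1.05, and 0 factors were called by edgeR. Ovol1 moved to -0.35, Foxq1 to -0.19 and Gata3 to -0.17, while Vdr, for which replicate 2 was as high, moved only from -0.70 to -0.53. In the other direction, leaving out acellular 15 mm replicate 3, the lowest of its group for 7 of the 8, gave 6 calls, all but Foxq1 and Gata3, and leaving out replicate 2 gave 1 (Lef1). Calls over all genes in these fits are not given here, so the 6 calls have no background beside them. The sign stayed negative for all 8 whichever of the 6 libraries was left out.

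**Figure D3:**
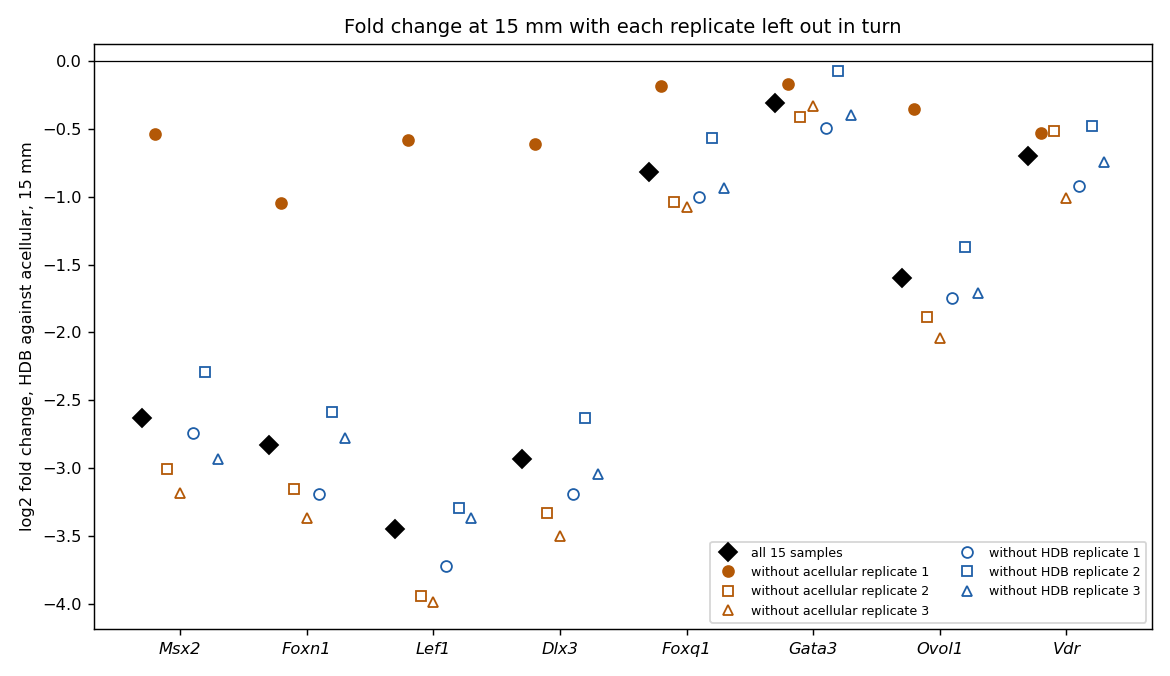
Log2 fold change of HDB against acellular skin at 15 mm (vertical axis) for each factor, fitted with all samples (black diamonds) and with each replicate of the 2 groups left out in turn. Without acellular replicate 1 (filled circles) the values of Msx2, Lef1 and Dlx3 shrink to between -0.54 and -0.61, and no value crosses 0.

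Over both sizes together, each weighted equally, 0 of the 8 factors were called by edgeR, as was 0% of all genes, and 6 factors and 2428 genes had an unadjusted edgeR p under 0.05. DESeq2 called 4 (Msx2, Foxn1, Lef1 and Dlx3), and without acellular 15 mm replicate 3 edgeR called 2 (Msx2 and Foxn1). For neither of these counts is the share of all genes called given here. Without acellular 15 mm replicate 1 edgeR called 0, and the fitted log2 fold changes over both sizes ran from -1.57 for Dlx3 and -1.05 for Msx2 to -0.26 for Foxq1 and -0.25 for Gata3. The permutation tests were run with all samples only. Exact two-sided permutation tests of mean log2 CPM, with labels permuted within wound size, gave p from 0.07 (Gata3 and Ovol1) to 0.185 (Dlx3), and adjusted for 24 such tests every p was 0.45 or higher. The smallest p these tests allow is 0.005 over both sizes and 0.1 within a size, so within a size no factor could pass. The difference between the treatment effects at 15 mm and 10 mm was called for 0 of the 8 factors and 0% of all genes, with 0 factors and 2063 genes at an unadjusted edgeR p under 0.05, and DESeq2 called 0 factors. It was largest for Lef1, at -2.79 ± 1.32, and became 0.08 without acellular 15 mm replicate 1.

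Wound size was compared within each treatment. In acellular skin 0 of the 8 factors and 0% of all genes were called, 3 factors and 2684 genes had an unadjusted edgeR p under 0.05, and DESeq2 called 1, Foxn1 (adjusted p = 0.0259). The fitted log2 fold changes of 15 mm against 10 mm were 2.60 ± 0.835 for Foxn1, 2.49 ± 1.17 for Dlx3, 2.44 ± 0.953 for Lef1 and 2.42 ± 0.974 for Msx2, which became 0.82, 0.16, -0.43 and 0.33 once acellular 15 mm replicate 1 was left out. In HDB skin 0 factors and 0% of all genes were called, with 0 factors and 1896 genes at an unadjusted edgeR p under 0.05 and 0 factors called by DESeq2. Msx2 and Dlx3 were higher in all 3 HDB 15 mm samples than in any HDB 10 mm sample, by a fitted 1.36 ± 0.968 and 2.09 ± 1.19 on the log2 scale. Such higher, non-overlapping samples were found for 11.0% of all genes.

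Markers of other cell types were set beside the treatment comparison. All 8 dermal fibroblast genes had positive fitted differences in HDB against acellular skin at both sizes, 0 of them called, and their summed level lay between 3654 and 5652 CPM in acellular 10 mm, 9209 and 12220 in HDB 10 mm, 3569 and 15150 in acellular 15 mm, 8520 and 18760 in HDB 15 mm and 7566 and 24700 in normal skin. The 11 epidermal keratinocyte genes found in the table had 4 positive differences at 10 mm and 7 at 15 mm, 0 called, with summed levels between 9310 and 22930 CPM in acellular and between 10060 and 20150 CPM in HDB wounds. For the 10 genes of dividing cells all fitted differences were negative at both sizes, 0 called, but without acellular 15 mm replicate 1, 5 of the 10 were positive at 15 mm and their median moved from -1.24 to 0.03 on the log2 scale. Their summed level lay between 411.6 and 751.7 CPM in acellular 10 mm, 413 and 568.7 in HDB 10 mm, 309.4 and 1776 in acellular 15 mm and 296.8 and 323.5 in HDB 15 mm skin. The 8 skeletal muscle genes had 3 positive differences at 10 mm and 8 at 15 mm (8 also without acellular 15 mm replicate 1), 0 called, with medians of -0.05 and 1.2 on the log2 scale. Their summed level lay between 4112 and 22730 CPM in acellular 10 mm, 647.2 and 29950 in HDB 10 mm, 496.9 and 16050 in acellular 15 mm and 7760 and 22850 in HDB 15 mm skin. In normal skin it lay between 40810 and 45440 CPM, above every wound sample, and all 8 had negative fitted differences in each wound group against normal skin, 0 called. Of the fibroblast genes 5 of 8 were called lower than in normal skin in acellular 10 mm and 1 in acellular 15 mm wounds (1 also without its replicate 1), and 0 in HDB wounds of either size. Of all 15369 genes tested, 3125 were called in acellular 10 mm (1501 higher) and 4642 in acellular 15 mm skin (2701 higher). In HDB skin 1895 were called at 10 mm (937 higher) and 796 at 15 mm (411 higher). The 1 lower call of 8 in acellular 15 mm skin is thus near the background. Of the epidermal genes 3 of 11 were called higher than in normal skin in acellular 10 mm, 2 higher and 2 lower in acellular 15 mm (4 higher and 0 lower without its replicate 1), 1 higher in HDB 10 mm and 0 in HDB 15 mm. The shares of all genes called higher were 9.77%, 17.6% (13.1% without that replicate), 6.10% and 2.67% in the same order. The 2 higher calls of 11 in acellular 15 mm skin are thus near the background. No gene of these lists was at 0 in a group, and the part of cell composition in the factors' differences was not tested.

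The T cell markers bear on Lef1 and Gata3, which T cells also make. Of the 10 found in the table, all 10 had positive fitted differences in HDB against acellular skin at 10 mm and 7 at 15 mm (5 without acellular 15 mm replicate 1, the median moving from 0.21 to -0.14 on the log2 scale), 0 called, with summed levels of 57.11 to 87.77 CPM in acellular 10 mm, 68.78 to 127.6 in HDB 10 mm, 76.38 to 112.5 in acellular 15 mm, 67.18 to 105.5 in HDB 15 mm and 52.29 to 59.58 in normal skin. In acellular 15 mm replicate 1, where Lef1 was highest, Cd3e (a T cell receptor chain) was lowest of all libraries at 0.51 CPM, against 1.52 and 6 CPM in the other two of its group, and Cd3g was at 2.10 CPM against 7.99 and 21.4. Tcf7, the close relative of Lef1 that serves both T cells and skin, was at 96.9 CPM there, against 29.3 and 24.7 CPM. Over the whole list, 8 of the 10 markers had their lowest level in this library, the exceptions being Tcf7 and Lck. The summed level of the list there was 110.1 CPM with Tcf7 and 13.1 CPM without it, a split made after the values were seen. Against normal skin 1 of the 10 was called higher in acellular 15 mm and 0 in the other wound groups. With 17.6% of all genes called higher in acellular 15 mm skin, that 1 call is not above the background. The part of T cells in the levels of Lef1 and Gata3 was not tested.

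Keratins and other products of the layers that these factors serve were measured next. Of 14 hair shaft products found in the table, 14 were called higher in acellular 15 mm than in normal skin (13 without acellular 15 mm replicate 1), and the same comparison gave 2 for acellular 10 mm wounds. HDB wounds gave 0 at 10 mm and 1 at 15 mm. Over all genes the shares called higher were 17.6% in acellular 15 mm (13.1% without its replicate 1) and 9.77% in acellular 10 mm wounds, and for HDB wounds 6.10% at 10 mm and 2.67% at 15 mm. Krt83, a hair cortex keratin, was at 2800, 228 and 1.54 CPM in acellular 15 mm skin, at 94.6, 0.562 and 15.2 CPM in acellular 10 mm skin, at 91.1, 10.4 and 5.25 CPM in HDB 15 mm skin and below 1 CPM in HDB 10 mm skin. Krt33a, another cortex keratin, was at 2180, 162 and 1.01 CPM in acellular 15 mm skin and at 0.281, 0.067 and 0.134 CPM in normal skin. Krt35, a keratin of the shaft's matrix and cuticle, was at 1660, 237 and 3.50 CPM in acellular 15 mm skin and below 0.4 CPM in normal skin. The inner root sheath products gave 8 of 8 called higher in acellular 15 mm (6 without its replicate 1), 6 in acellular 10 mm and 0 in either HDB group, beside the same shares over all genes. Tchh (trichohyalin, the inner root sheath's granule protein) was at 5030, 256 and 10.8 CPM in acellular 15 mm skin, and the inner root sheath keratins Krt71 and Krt25 were at 2960, 203 and 3.88 CPM and at 2380, 152 and 2.55 CPM. Against acellular skin, HDB skin had negative fitted differences for all 14 shaft and all 8 inner root sheath products at both sizes, 0 of them called. Krt31, Krt33a, Krt33b and Krt34, and likewise Krt81, Krt83 and Krt86, are close copies between which reads could be shared out.

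Over the 12 wound samples, Pearson's r of log2 CPM with the mean of the hair shaft products was 0.948 for Dlx3, 0.93 for Msx2, 0.878 for Foxn1, 0.787 for Vdr, 0.735 for Ovol1, 0.712 for Lef1, 0.432 for Foxq1 and 0.124 for Gata3. These are descriptions over samples that share tissue and library, and no p is attached. Without acellular 15 mm replicate 1 they were 0.916 for Dlx3, 0.903 for Msx2 and 0.831 for Foxn1, but 0.458 for Lef1 and 0.0505 for Foxq1. Between factors, Msx2 and Dlx3 ran closest (r = 0.975, and 0.963 without that library), followed by Foxn1 and Ovol1 (0.933, and 0.782 without it) and Msx2 and Foxn1 (0.93, and 0.822 without it). The second closest pair without it was Foxn1 and Vdr (0.945, and 0.896 with it). Foxq1 ran closest to Ovol1 (0.872) and Gata3 to Foxq1 (0.844), and without that library Foxq1 ran closest to Gata3 (0.934). With the epidermal keratinocyte genes, r over the 12 wound samples was 0.292 for Foxq1, 0.559 for Gata3 and -0.0234 for Ovol1. Over the 11 without that library it was 0.852 for Foxq1, 0.763 for Gata3 and 0.706 for Ovol1, so these values rest on whether it is counted.

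**Figure D4:**
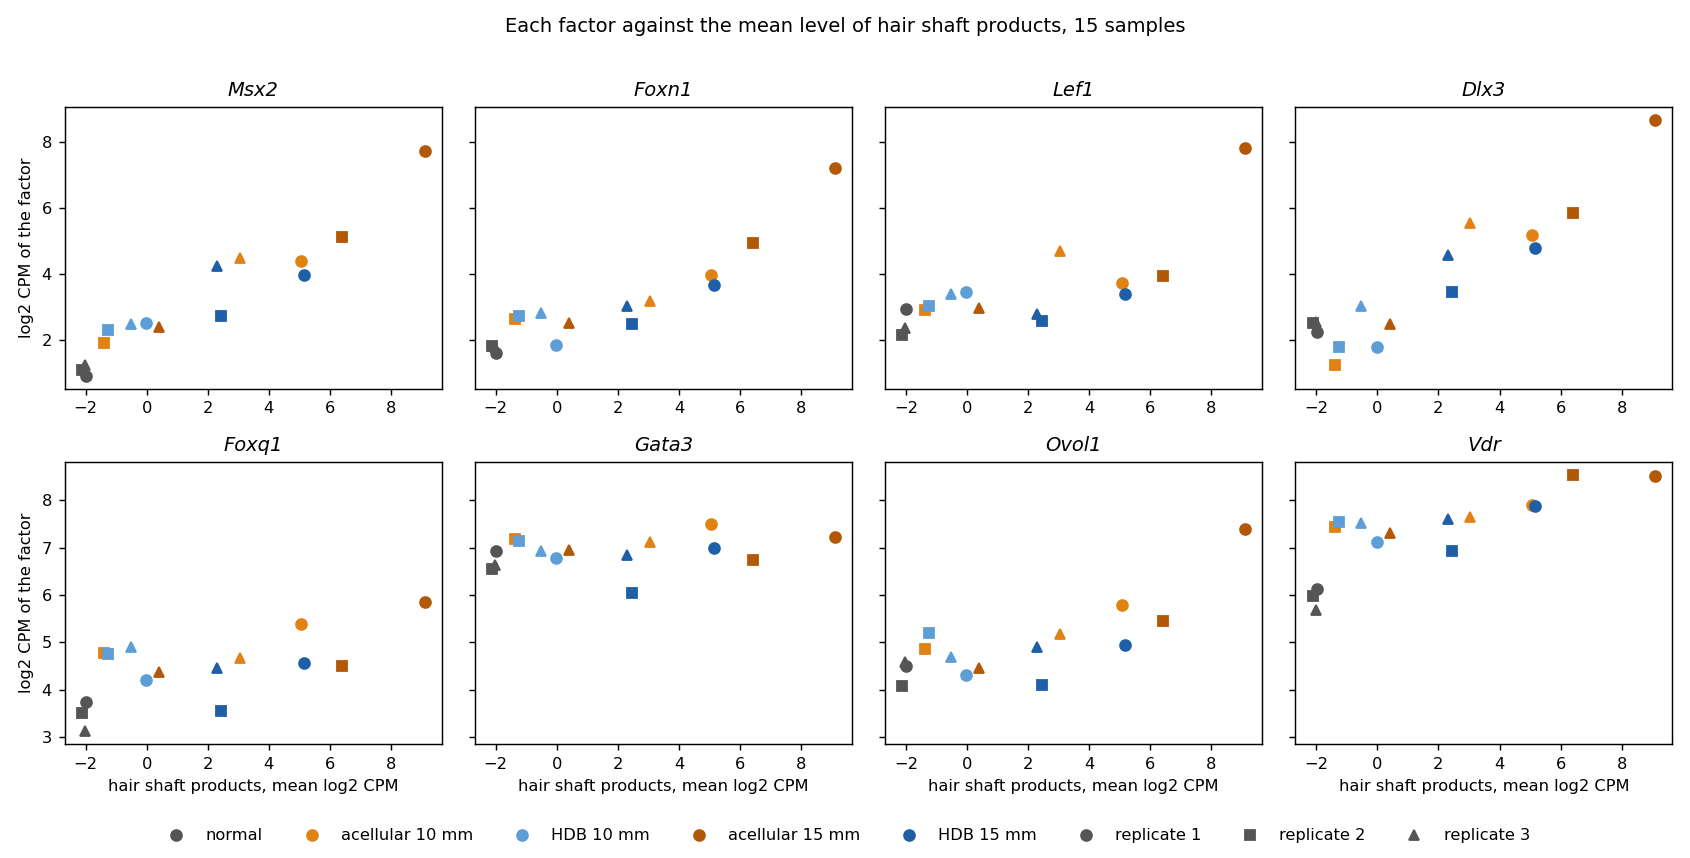
Log2 CPM of each factor (vertical axis, shared within a row) against the mean log2 CPM of 14 hair shaft products (horizontal axis) in the 15 samples, coloured by group, with symbols for replicates. Msx2, Foxn1 and Dlx3 are highest in the library with the most shaft product, acellular 15 mm replicate 1, whereas Gata3 varies little.

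Lef1 went with the signalling genes of the matrix, with r of 0.894 to their mean over the 12 wound samples and 0.812 without acellular 15 mm replicate 1. Shh, the hedgehog ligand of growing follicles, was at 21.7 CPM in acellular 10 mm replicate 3 and 25.3 CPM in acellular 15 mm replicate 1, at 4.50 CPM in HDB 10 mm replicate 3 and below 1 CPM in the other 12 libraries. Those first 2 libraries also held the highest Lef1 levels (25.9 and 228 CPM), the highest Wnt5a (50.2 and 132 CPM) and the highest Ptch1, the hedgehog receptor and target (83.5 and 146 CPM). Acellular 15 mm replicate 2 was high in shaft products, Msx2, Foxn1 and Dlx3 but had Shh at 0.875 CPM and Lef1 at 15.2 CPM. Mki67, a marker of dividing cells, was also highest in those 2 libraries, at 280 and 698 CPM, but dividing cell genes were not high in these libraries alone. Of the 10 on the list, 10 were called higher than in normal skin in acellular 15 mm wounds (with and without replicate 1), beside 17.6% of all genes, and 10 in those of 10 mm, beside 9.77%. HDB wounds gave 8 at 10 mm, beside 6.10%, and 1 at 15 mm, beside 2.67%. Of the 14 Wnt, bone morphogenetic protein, hedgehog and Eda signalling genes, 3 were called higher and 1 lower in each acellular group than in normal skin (without acellular 15 mm replicate 1, 1 higher and 1 lower at 15 mm), 1 lower in HDB 10 mm and 0 in HDB 15 mm. Higher calls among all genes were 9.77% in acellular 10 mm and 17.6% in acellular 15 mm skin, so these counts are near the background at 15 mm. In HDB against acellular skin 1 of the 14 had a positive fitted difference at each size, 0 called, and 6 at 15 mm without acellular 15 mm replicate 1. The gene lower than in normal skin was Nog, a bone morphogenetic protein inhibitor, in both acellular groups and HDB 10 mm. Bmpr1a, a bone morphogenetic protein receptor, was the most abundant of them, then Bmp7 and Axin2, a Wnt target that lay between 37.6 and 87.2 CPM in every library. Of 8 dermal papilla genes, 1 was called higher (Corin) and 1 lower (Prom1) in every wound group than in normal skin, and without acellular 15 mm replicate 1 the lower calls at 15 mm were 2. Acellular beads gave higher calls for 17.6% of all genes at 15 mm and 9.77% at 10 mm, HDB for 2.67% and 6.10%. In acellular wounds 1 higher call of 8 is thus near the background, as is 1 lower call by the all-gene counts above. The share of all genes called lower without that replicate is not given here. Corin was at 49.1, 11.5 and 9.82 CPM in acellular 15 mm skin and at 1.12, 1.14 and 1.34 CPM in normal skin.

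Of 16 other follicle transcription factors, 7 were called higher in acellular 10 mm, 12 in acellular 15 mm (11 without its replicate 1), 3 in HDB 10 mm and 4 in HDB 15 mm than in normal skin, and 0 between HDB and acellular skin at either size. Over all genes 9.77%, 17.6% (13.1% without that replicate), 6.10% and 2.67% were called higher in these groups. Hoxc13, a homeobox gene that acts on hair keratins and on Foxq1, was at 244, 106 and 10.6 CPM in acellular 15 mm skin, at 54, 18.1 and 45.7 CPM in HDB 15 mm skin and between 3.15 and 3.88 CPM in normal skin. It rose against normal skin by 5.05 ± 0.961 in acellular 15 mm (edgeR adjusted p = 0.00534), 3.29 ± 0.898 in acellular 10 mm (edgeR adjusted p = 0.0261) and 3.44 ± 0.903 in HDB 15 mm skin (edgeR adjusted p = 0.0481) on the log2 scale. Hr (hairless), the corepressor that binds Vdr, was the most abundant of the list. Its level was 446, 964 and 356 CPM in acellular 15 mm, 628, 282 and 554 CPM in HDB 15 mm and 193, 171 and 145 CPM in normal skin, highest in the same library as Vdr. Hr rose with Vdr in acellular 10 mm (1.26 ± 0.355), acellular 15 mm (1.80 ± 0.36) and HDB 15 mm skin (1.53 ± 0.357). Its fold change in HDB 10 mm skin, where Vdr was also called, is not given here. Cux1, an inner root sheath and progenitor factor, was at 317, 181 and 76.1 CPM in acellular 15 mm skin, and Bcl11b, a factor of T cells and epidermis, at 50, 65.1 and 99.2 CPM, the reverse order.

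Genes other than the 8 were ranked by likeness to each factor, as Pearson's r of log2 CPM over all 15 samples. Msx2 was most like Tmeff1 (0.975), the desmosomal cadherin Dsg4 (0.973) and Hoxc13 (0.968). Foxn1 came closest to Lpin3 (0.984), Etv4 (0.98) and Zdhhc13 (0.973), and Lef1 to Hira (0.978), Zdhhc21 (0.973) and Smarcc1 (0.972). For Dlx3 they were Cps1 (0.962), Vsig8 (0.959) and the hair keratin Krt87 (0.954), for Ovol1 Lad1 (0.98), Spint1 (0.976) and AI661453 (0.971), and for Foxq1 Myo19 (0.971), Ap1m2 (0.97) and Gls2 (0.966). Gata3 was most like Marveld2 (0.926), Qsox2 (0.913) and Aldoc (0.901), and Vdr was close to Enc1 (0.976) and Enpp1 (0.976). Without acellular 15 mm replicate 1 the values for Lef1 were between 0.894 and 0.914, whereas those of Enc1 and Enpp1 with Vdr were both 0.976.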

How the data were processed

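Reads of 15 skin libraries had been mapped and counted by the authors, and the deposited table holds expected counts per gene, which need not be whole. The submitters' processing notes name HISAT2 2.0.4, Bowtie2 2.2.5, RSEM 1.2.12 and GRCm38.p6, without their roles. Between replicates, every pair differed by more than sampling noise. The expected counts were rounded, genes were filtered with filterByExpr, and 1 fit of 5 group means was made with edgeR 4.0.16 (TMM, quasi-likelihood test, Benjamini-Hochberg adjustment, threshold 0.05) in R 4.3.3. Levels are CPM, and a prior count of 2 entered its log2. The SE of a fold change is its size over the square root of F. Exact permutation tests were two-sided, with 20 arrangements within a size and 400 over both. Figures were drawn with matplotlib 3.10.9.

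The 8 factors and all lists were chosen with earlier results of these data known, so no list is independent evidence. Named genes were the 8 factors, up to 3 genes of highest mean CPM in a list, known partners, and the 3 genes most like each factor, of which 1 is not reported here. Acta1, Corin, Prom1, Nog, Cd3e, Cd3g, Lck, Tcf7, Wnt5a, Ptch1 and Mki67 were named after their values were seen. Replicate numbers were checked for pairing by the correlation of deviations from group means. It exceeded 0.1 for every pair only between acellular and HDB 15 mm skin (0.397, 0.167 and 0.183). Single values between other groups ran from -0.544 to 0.489. The labels name no shared animal or day, so the pairs at 15 mm were picked from the data and are not a known part of the design. The main fit did not use them, and the replicate block applied the numbers to all 5 groups. Alternatives were DESeq2 1.42.0, DESeq2 size factors in edgeR, no filter or a stricter one (mean count of 50), a replicate block, a transcript length offset with and without the block, only the groups compared, and each replicate left out. The context list counts and levels per kilobase without acellular 15 mm replicate 1, and the T cell sum without Tcf7, were added after seeing the data. The scripts were tested on simulated data. Promoter windows are from RefSeq (GRCm38.p6).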

Additional observations from a re-analysis of the deposited data

How the results depend on the processing

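Normal libraries had few reads for Msx2 (25 to 33 counts), which limits its fold changes, and 3 samples a group limit all tests. Counts of factors called moved as follows. Beside them, calls over all genes are given in this section only for HDB against acellular at 15 mm, and not for fits that left out a replicate. With only the groups compared in the fit, acellular wounds against normal skin gave 7 calls at 10 mm and 1 at 15 mm, and HDB wounds 3 at 10 mm and 4 at 15 mm. DESeq2 called 4 in HDB against acellular at 15 mm and 4 over both sizes, 2 for HDB wounds of each size and 3 for acellular wounds of 10 mm against normal skin, and 1 in acellular 15 mm against 10 mm. Leaving out 1 replicate gave 0 to 6 calls in HDB against acellular at 15 mm, 0 to 2 over both sizes, and, against normal skin, 1 to 2 for acellular wounds of 10 mm, 3 to 7 for those of 15 mm, 0 to 2 for HDB wounds of 10 mm and 0 to 1 for those of 15 mm. It gave 0 to 1 in acellular 15 mm against 10 mm. Over all genes, the 450 calls of HDB against acellular at 15 mm became 199 with no filter, 695 with the stricter filter, 179 with the replicate block, 0 with the length offset, 0 with only the groups compared and 1770 by DESeq2; the causes were not tested.

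With the replicate block, 6 factors were called in acellular 15 mm against normal skin in place of 7, Ovol1 having an edgeR adjusted p of 0.0534, and no other call of a factor changed. Signs turned only near 0 outside the fits that left out a replicate. The difference of treatment effects for Gata3 (0.03) was -0.0026 with the stricter filter, -0.016 with the replicate block, -0.0601 with the length offset and -0.1014 with both, and Foxq1 in acellular 15 mm against 10 mm (0.09) was -0.016 with both.

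Leaving out 1 replicate turned some signs. The difference of treatment effects ranged from -0.1584 to 0.2656 for Gata3, -0.9735 to 1.922 for Dlx3, -1.6168 to 1.0291 for Msx2, -3.3781 to 0.084 for Lef1, -0.7488 to 0.1399 for Foxq1 and -1.4905 to 0.1998 for Ovol1. Acellular 15 mm against 10 mm ranged from -0.541 to 0.3472 for Foxq1, -0.433 to 3.029 for Lef1 and -0.2777 to 1.4122 for Ovol1. Dlx3 in HDB 10 mm against normal ranged from -0.6641 to 0.1087, Gata3 in HDB 15 mm against normal from -0.2191 to 0.2052, and in HDB 15 mm against 10 mm Vdr from -0.1006 to 0.3454 and Ovol1 from -0.2753 to 0.1852. By the median transcript length the order in normal skin was the same, and in acellular 15 mm skin Gata3 passed Dlx3 and Ovol1 passed Msx2.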
